A study of Mus musculus with 6 samples.

Results

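Matricellular proteins are secreted into the extracellular matrix, where they act mainly on how cells attach, move and respond to growth factors rather than as building material of the matrix. The group described here has 10 named genes, Spp1, Sparc, Thbs1, Thbs2, Tnc, Fn1, Postn, Fbln2, Ecm1 and Tgfbi, matched by exact gene symbol to the 10520 genes of a count table. The table held 8 of the 10, and Thbs2 and Postn were not in it. The genes were selected on fold changes and calls from this same comparison of shLmna with shControl cells, so their values are given as a description and no test is drawn from them.

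RNA of E0771 cells, a breast adenocarcinoma line from C57BL/6 mice, was sequenced by MARS-seq. This method reads the 3' end of polyadenylated RNA and gives each captured molecule a random tag, the unique molecular identifier (UMI), by which amplified copies are counted once. Both groups were transduced with lentivirus and selected with 3 µg/ml puromycin. The 3 shControl libraries came from cells with the TRC2 pLKO.5-puro empty vector, and the 3 shLmna libraries from cells with a lamin A/C shRNA in a MISSION plasmid, whose titles read shRNA4. Each group is 1 selected line, and the labels do not say that the replicates were separate cultures, so the spread between libraries may be technical. The control carried an empty vector, not an shRNA without a target.

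Osteopontin, the product of Spp1, is a phosphorylated glycoprotein that binds integrins and CD44 and is made by bone cells, macrophages and many carcinomas. Sparc binds collagen and calcium, Tgfbi is a secreted adhesion protein named for its induction by TGF-beta, and thrombospondin 1 (Thbs1) binds CD47 and can activate latent TGF-beta. Fibulin 2 (Fbln2) links elastic fibres and basement membranes, Ecm1 is a secreted glycoprotein of skin and other matrices, and fibronectin (Fn1) and tenascin C (Tnc) are large adhesive proteins that many tumors deposit.

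The start regions of 4 of the genes are shown so that the letters at genes with higher values in shLmna can be set beside those at the gene with lower values. RefSeq windows on GRCm38.p6, from 250 bases before to 50 bases after an annotated start, were found for 6 of the 8 measured genes and not for Thbs1 and Fn1. Shown here 5' to 3' on the strand of the gene are the windows of Spp1 (chr5:104434861-104435160, forward strand), Sparc (chr11:55420031-55420330, reverse strand) and Tgfbi (chr13:56609336-56609635, forward strand), which were higher in shLmna, and of Fbln2 (chr6:91212514-91212813, forward strand), which had lower values there. The GENCODE gene models, whose coordinates are given with each gene, start further upstream for Sparc and Fbln2, so that these RefSeq windows lie inside those models. Capitals mark matches, on either strand, to 6 motifs that were searched.
Spp1: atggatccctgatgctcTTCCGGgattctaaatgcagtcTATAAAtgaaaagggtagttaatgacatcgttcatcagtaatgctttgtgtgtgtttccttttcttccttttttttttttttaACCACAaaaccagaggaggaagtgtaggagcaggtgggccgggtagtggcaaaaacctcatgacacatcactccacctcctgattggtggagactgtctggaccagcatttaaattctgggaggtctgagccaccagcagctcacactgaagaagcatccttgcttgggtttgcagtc
Sparc: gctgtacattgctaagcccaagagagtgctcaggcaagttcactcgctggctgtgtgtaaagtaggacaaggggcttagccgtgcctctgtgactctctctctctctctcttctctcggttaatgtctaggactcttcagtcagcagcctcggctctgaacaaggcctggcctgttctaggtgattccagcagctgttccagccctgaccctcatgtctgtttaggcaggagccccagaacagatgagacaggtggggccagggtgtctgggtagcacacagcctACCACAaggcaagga
Tgfbi: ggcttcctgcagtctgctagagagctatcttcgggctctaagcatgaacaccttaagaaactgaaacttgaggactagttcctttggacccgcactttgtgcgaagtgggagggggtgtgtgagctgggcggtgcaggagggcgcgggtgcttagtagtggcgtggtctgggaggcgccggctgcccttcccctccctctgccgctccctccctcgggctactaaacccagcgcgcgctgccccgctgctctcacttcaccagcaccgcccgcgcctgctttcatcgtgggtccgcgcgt
Fbln2: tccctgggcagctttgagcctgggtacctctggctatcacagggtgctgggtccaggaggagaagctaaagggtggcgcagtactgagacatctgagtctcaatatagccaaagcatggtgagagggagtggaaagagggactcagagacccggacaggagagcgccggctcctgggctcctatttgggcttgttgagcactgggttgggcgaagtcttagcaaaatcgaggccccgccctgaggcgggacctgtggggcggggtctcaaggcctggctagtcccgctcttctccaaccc

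The motifs were AP-1 (TGANTCA), TEAD (GGAATG), RUNX (TGTGGT), the Myc E-box (CACGTG), ETS (CCGGAA) and a TATA box (TATAAA). The Spp1 window held an ETS match from position -233, a TATA match from -211 and a RUNX match from -128, counted from the annotated start. A second Spp1 window, chr5:104435942-104436241, held none of the 6. The Sparc window held 1 RUNX match, from position 36, and no match was found in the windows of Tgfbi and Fbln2. Ecm1 (chr3:95739520-95739819, reverse strand) held an AP-1 match from position -64 and a TATA match from -27, and Tnc held TATA matches only. Among 32851 RefSeq windows of this length, 16.8% held the RUNX letters, 14.9% the ETS letters, 14.7% the TEAD letters, 13.6% the TATA letters, 7.81% the AP-1 letters and 7.15% the Myc letters. None of these matches was shared by the 3 printed windows of the higher genes. A match is a run of letters and not a bound site.

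The libraries held between 1846208 and 3242051 UMIs, over 10520 genes that each reached at least 6 UMIs in some library. Levels are given in CPM, the UMIs of a gene for every 1000000 UMIs of the library after edgeR's TMM scaling. Every gene was counted over the same length, its last 1000 bases and 100 bases downstream, so CPM values of different genes need no correction for gene length. Other differences between gene ends, such as their GC content, were not corrected in CPM, so an order of genes by CPM is approximate. Values of single libraries are given in the order of replicates 1, 2 and 3. The targeted gene, Lmna, was at 810, 874 and 936 CPM in shControl and 388, 376 and 379 CPM in shLmna, a log2 fold change of -1.20 (SE 0.13, adjusted p = 3.5e-05, edgeR). The 6 replicate pairs each varied beyond counting noise (chi-square of 5.11 to 8.28 per degree of freedom). The shControl libraries were at plate positions 13 to 15 and the shLmna libraries at 16 to 18, and an effect of plate position cannot be told apart from that of the group. Of 10 epithelial markers 6 were in the table, and Cdh1, Krt5, Krt19 and Esr1 were not. Their sum was 295 to 350 CPM in shControl and 313 to 347 CPM in shLmna, of which Krt8 alone made up at least 83.4%. Epcam, at 13.7 ± 0.63 CPM and 7.08 ± 4.07 CPM, and Krt14, at 8.24 ± 1.34 CPM and 3.92 ± 2.66 CPM (SD, n = 3 each), were lower in shLmna without overlap of the groups and were not called. In alternative fits Epcam was called without shLmna replicate 2, and Krt14 with limma-voom and without shLmna replicate 3. Of the other markers, Krt18 also had a lower mean in shLmna, whereas Krt8, Erbb2 and Krt7 had a higher one. Krt8, Erbb2 and Krt18 had log2 fold changes of 0.07, 0.37 and -0.53, with overlap of the groups, and were not called. Krt7, with too few counts to be tested, had 6, 4 and 8 UMIs in shControl and 7, 9 and 10 in shLmna.

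Of the 10 genes, 6 had enough counts to be tested. A gene was called where its mean normalized count was above 5, its absolute log2 fold change above 1 and its adjusted p below 0.05 in edgeR's quasi-likelihood test. Spp1, Sparc, Tgfbi and Thbs1 met these criteria in the higher direction and none in the lower direction, while Fbln2 and Ecm1 met them in neither. Over all 8969 tested genes, 512 were called (5.71%), 356 of them higher (3.97%) and 156 lower (1.74%). For 5 of the 6 genes, 4 higher and 1 lower, the ranges of both groups were separate, as they were for 32.5% of all tested genes. The median log2 fold change was 1.53 over the 6 genes and 0.0033 over all tested genes. Because the genes were chosen with this comparison known, nothing is read from these counts.

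**Figure D1:**
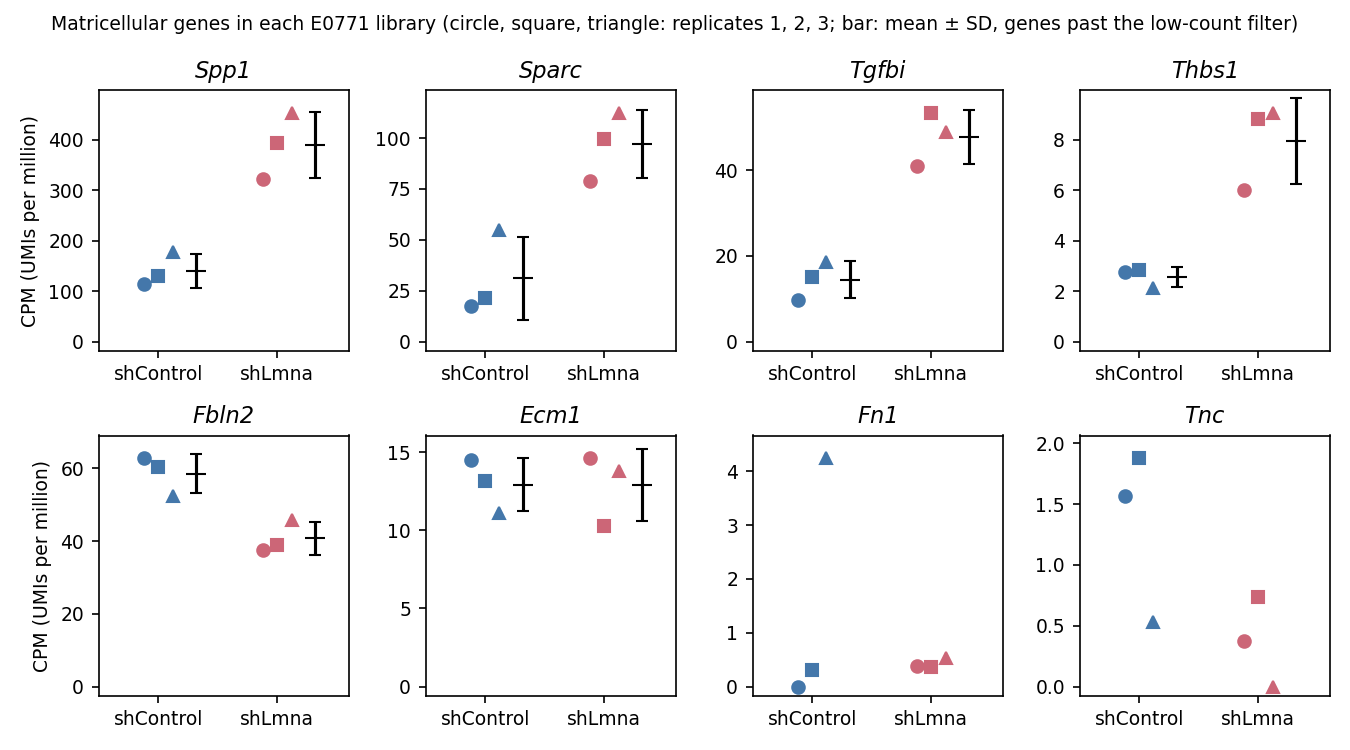
CPM (y axis) of the 8 measured matricellular genes in each library of shControl (blue) and shLmna (red), with the mean ± SD (n = 3) beside the points for the 6 tested genes. Spp1, Sparc, Tgfbi and Thbs1 lay higher in all 3 shLmna libraries, Fbln2 lay lower, Ecm1 overlapped, and Fn1 and Tnc stayed under 5 CPM.

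Spp1 was the most abundant of the group in every library. The shControl libraries gave 290, 412 and 333 UMIs, while the shLmna libraries gave 860, 1072 and 850. These were 114, 129 and 177 CPM in shControl against 322, 394 and 452 CPM in shLmna. The lowest shLmna library thus lay well above the highest shControl library. The mean level was 139.7 ± 32.9 CPM (SD, n = 3) in shControl and 389 ± 65.0 CPM (SD, n = 3) in shLmna, a 2.79-fold difference and a log2 fold change of 1.48 (SE 0.18, 95% confidence interval 1.10 to 1.87). Among the 10520 genes ranked by CPM within each library, Spp1 moved from a median rank of 1742 in shControl to 398 in shLmna. The gene lies on the forward strand of chromosome 5 of GRCm38, from 104435118 to 104441050. With each library left out in turn its log2 fold change stayed between 1.34 and 1.67, and it met the criteria in all 16 alternative fits.

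Sparc showed a difference of similar size with a wider spread in the controls. Its UMIs were 45, 68 and 103 in shControl and 211, 271 and 211 in shLmna, or 17.6, 21.3 and 54.6 CPM against 79.1, 99.5 and 112 CPM. The groups did not overlap, but shControl replicate 3 stood apart from the other controls. The mean was 31.2 ± 20.4 CPM (SD, n = 3) in shControl, a coefficient of variation of 65.4%, and 96.9 ± 16.7 CPM (SD, n = 3) in shLmna, where it was 17.2%. The log2 fold change was 1.69 (SE 0.31, 95% confidence interval 1.03 to 2.34). Without shControl replicate 3 it was 2.29, and without shControl replicate 1 it was 1.39. The same library, shControl replicate 3, also had the highest shControl value of Spp1 and of Tgfbi, and without it their log2 fold changes were 1.67 and 1.91. It was at plate position 15, next to the shLmna libraries. From position 13 to 18 Sparc and Spp1 rose at every step, also within each group. Tgfbi rose at every step but that from 17 to 18. The part of plate position in this was not tested. Sparc lies on the reverse strand of chromosome 11, from 55394500 to 55423183.

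Tgfbi showed a difference of similar size at lower counts. It had 25, 48 and 35 UMIs in shControl and 109, 145 and 92 in shLmna. On the CPM scale these were 9.81, 15.01 and 18.6 against 40.9, 53.2 and 48.9, without overlap. The means were 14.5 ± 4.41 CPM and 47.7 ± 6.29 CPM (SD, n = 3 each), a log2 fold change of 1.74 (SE 0.23, 95% confidence interval 1.24 to 2.23). Its interval overlapped those of Spp1, Sparc and Thbs1, so the order of these 4 fold changes is not resolved. Tgfbi lies on the forward strand of chromosome 13, from 56609523 to 56639562, and met the criteria in all 16 alternative fits.

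Thbs1 was the scarcest of the tested genes and the least certain. It had 7, 9 and 4 UMIs in shControl and 16, 24 and 17 in shLmna, or 2.75, 2.81 and 2.12 CPM against 6.00, 8.81 and 9.04 CPM. All shLmna libraries lay above all shControl libraries. The means were 2.56 ± 0.38 CPM and 7.95 ± 1.70 CPM (SD, n = 3 each), and the log2 fold change was 1.58 (SE 0.37, 95% confidence interval 0.78 to 2.37). It no longer met the criteria without shControl replicate 2, shLmna replicate 2 or shLmna replicate 3, where the log2 fold change lay between 1.48 and 1.65. The counted end of Thbs1 had the lowest GC content of the group, 35.2% against a median of 47.1% over all genes. With counts corrected for this GC content, the log2 fold change of Thbs1 was 1.12 and the criteria were still met, but not when that fit also took the replicate number as a block. With all libraries thinned to the smallest one, it was 2.17. The gene lies on the forward strand of chromosome 2, from 118111876 to 118127133.

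Fbln2 had the opposite direction. It had 160, 193 and 99 UMIs in shControl and 100, 106 and 86 in shLmna, or 62.7, 60.3 and 52.5 CPM against 37.5, 38.9 and 45.7 CPM. Every shLmna library was thus below every shControl library, with shControl replicate 3 and shLmna replicate 3 closest to each other. The means were 58.5 ± 5.35 CPM and 40.7 ± 4.41 CPM (SD, n = 3 each), a log2 fold change of -0.54 (SE 0.17, 95% confidence interval -0.90 to -0.18), which is short of the fold criterion. Fbln2 lies on the forward strand of chromosome 6, from 91212455 to 91272540.

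Ecm1 gave no difference larger than the spread. It had 37, 42 and 21 UMIs in shControl and 39, 28 and 26 in shLmna. The levels were 14.5, 13.1 and 11.1 CPM against 14.6, 10.3 and 13.8 CPM, and the groups overlapped. Both means were 12.9 CPM, with SDs of 1.69 and 2.31 (n = 3 each). The log2 fold change of Ecm1 was -0.02 with a 95% confidence interval from -0.56 to 0.52, and a difference of the size seen in Spp1 lies outside this interval. Ecm1 lies on the reverse strand of chromosome 3, from 95734147 to 95739569.

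Fn1 and Tnc did not reach the count filter and no fold is given. Fn1 had 0, 1 and 8 UMIs in shControl and 1 in each shLmna library. All but 1 of its 9 shControl UMIs came from replicate 3, whose count of 8 has an exact 95% Poisson interval of 3.45 to 15.8. Summed over each group, Fn1 had 9 UMIs (95% interval 4.12 to 17.1) in shControl and 3 (0.62 to 8.77) in shLmna, and the intervals overlap. Tnc had 4, 6 and 1 UMIs in shControl and 1, 2 and 0 in shLmna, with sums of 11 (5.49 to 19.7) and 3 (0.62 to 8.77). A difference in either gene was not detectable at this depth, and these intervals cover counting error only. Fn1 lies on chromosome 1 from 71585520 to 71653200 and Tnc on chromosome 4 from 63959785 to 64047015, both on the reverse strand.

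**Figure D2:**
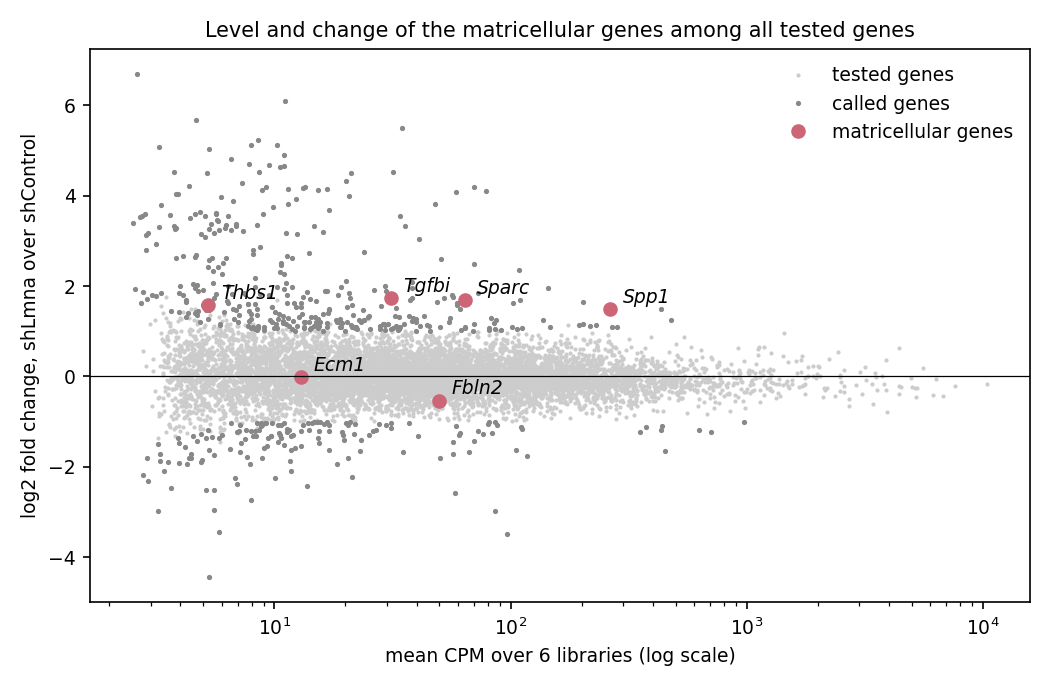
Log2 fold change of shLmna over shControl (y axis) against the mean CPM over all 6 libraries (x axis, log scale) for all 8969 tested genes, with called genes in dark grey and the 6 tested matricellular genes in red. Spp1 lay toward the right among the called genes, at a log2 fold change of 1.48, and Thbs1 near the low end of the levels tested.

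The order of the levels differed between the groups. In shControl the mean CPM fell from Spp1 through Fbln2, Sparc, Tgfbi, Ecm1, Thbs1 and Fn1 to Tnc. The ranges of Spp1 and Fbln2 were apart, as were those of Ecm1 and Thbs1, and all other neighbours in this order overlapped. In shLmna the order was Spp1, Sparc, Tgfbi, Fbln2, Ecm1, Thbs1, Fn1 and Tnc. There, Tgfbi and Fbln2 overlapped, as did Fn1 and Tnc, and all other neighbours were apart. Fbln2 thus stood next to Spp1 in shControl and below Sparc and Tgfbi in shLmna.

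Ratios within a library need no scaling between libraries. For each Fbln2 UMI there were 1.81, 2.13 and 3.36 Spp1 UMIs in shControl, against 8.60, 10.1 and 9.88 in shLmna. Sparc gave 0.28, 0.35 and 1.04 UMIs for each Fbln2 UMI in shControl and 2.11, 2.56 and 2.45 in shLmna. Tgfbi gave 0.16, 0.25 and 0.35 against 1.09, 1.37 and 1.07. For all 3 genes the groups were apart, with shControl replicate 3 the closest control. Fbln2 itself was lower in every shLmna library, which raises all ratios to it there. For each Fbln2 UMI there were 0.23, 0.22 and 0.21 Ecm1 UMIs in shControl and 0.39, 0.26 and 0.30 in shLmna. These groups were also apart, although the CPM of Ecm1 overlapped, so the separation does not belong to the 3 genes alone. The ratio of Spp1 to Sparc behaved otherwise. It was 6.44, 6.06 and 3.23 in shControl and 4.08, 3.96 and 4.03 in shLmna, so that shControl replicate 3 fell below all shLmna libraries and the other controls lay above them.

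Over the 8 genes, the summed level was 223, 244 and 320 CPM in shControl and 501, 605 and 682 CPM in shLmna. Spp1 made up 51.1%, 52.9% and 55.1% of the UMIs of the 8 genes in shControl and 64.3%, 65.0% and 66.3% in shLmna.

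The authors' ComBat values, on a log2 scale, come from the same libraries and are no independent measurement. On that scale the mean of Spp1 was 8.80 in shControl and 9.82 in shLmna, a difference of 1.01. The differences were 0.91 for Sparc, 0.74 for Tgfbi and 0.33 for Thbs1, all without overlap of the groups. The difference was -0.27 for Fbln2 and -0.18 for Tnc, again without overlap, whereas Ecm1 and Fn1 overlapped. Tnc, which overlapped in CPM, thus did not overlap in these values. Genes of few UMIs sat near a high floor on this scale. Fn1 had 5.29 in shControl replicate 1, where it had 0 UMIs, and Tnc lay between 5.30 and 5.55. Differences on this scale are therefore not to be read as fold changes of such genes. For the 4 higher genes the differences on this scale were smaller than the log2 fold changes fitted to the counts.

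**Figure D3:**
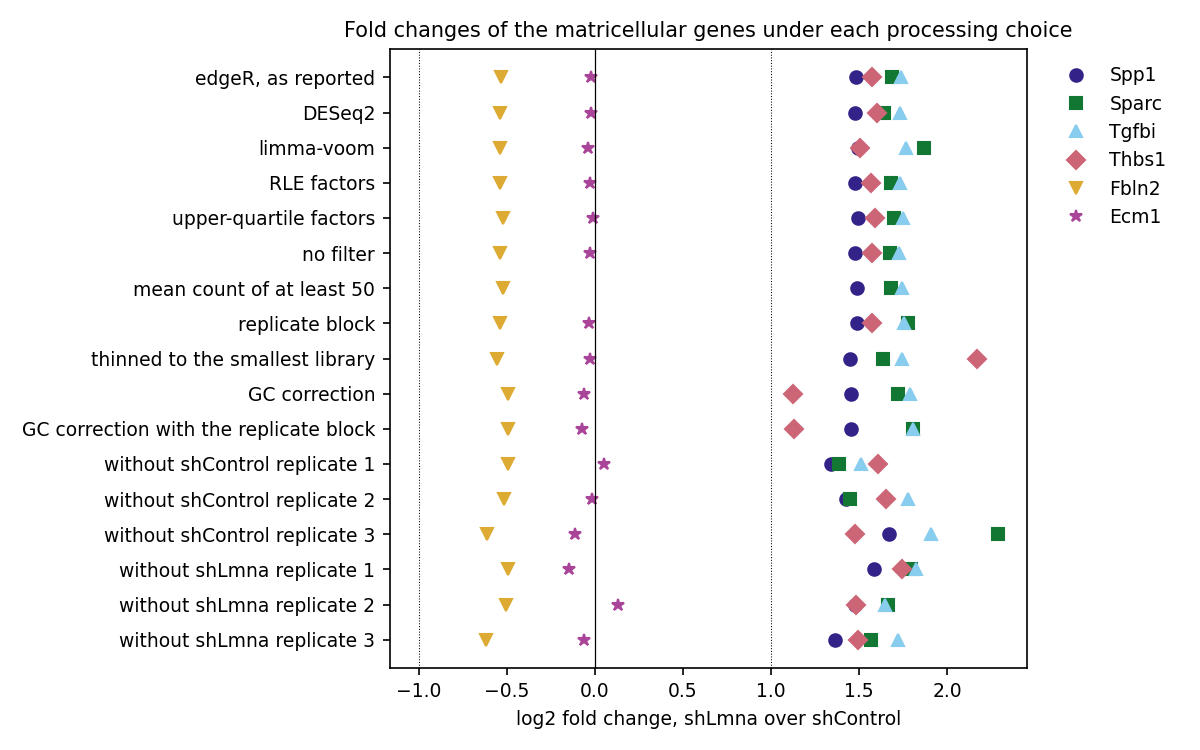
Log2 fold change of shLmna over shControl (x axis) of the 6 tested matricellular genes under the reported fit and each of 16 alternatives (y axis), with dotted lines at the fold criterion of 1 in either direction. Spp1, Sparc, Tgfbi and Thbs1 stayed above 1 and Fbln2 between -0.62 and -0.49 in every fit that tested them, Sparc moved most without shControl replicate 3 (2.29), and Thbs1 had no value at a mean count of at least 50.

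The cell types that could add such transcripts were checked by their markers. Spp1 is also a macrophage gene, and the 5 measured of 9 macrophage or leukocyte markers summed to 43.1 to 51.3 CPM in shControl and 34.5 to 37.8 CPM in shLmna. The defining markers Ptprc, Adgre1, Itgam and Tyrobp were not in the table. The members of this list did not move together. Lyz2 rose (log2 fold change 1.28, adjusted p = 0.0110, edgeR), a call lost without shControl replicate 1, and Cd14 fell (-1.30, adjusted p = 0.0026, edgeR). Cd14, the largest part of the sum in shControl, went from 27.6 ± 4.21 CPM to 11.3 ± 2.32 CPM (SD, n = 3 each). Lyz2 went from 6.00 ± 1.81 CPM to 14.7 ± 1.59 CPM (SD, n = 3 each). The lower sum in shLmna thus follows mainly Cd14 and does not describe the list as a whole. Csf1r, below the count filter, had 5, 5 and 0 UMIs in shControl and 6, 7 and 5 in shLmna. Sparc, Fbln2 and Fn1 are also made by fibroblasts, and the 6 measured of 10 mesenchymal markers summed to 4834 to 5718 CPM in shControl and 5645 to 6442 CPM in shLmna. Vim, which encodes vimentin and is common in cultured cells, made up 99.3% to 99.7% of that sum. Dcn, Lum, Thy1 and Fap were not in the table, while Col3a1 had no UMI in shControl and 13, 12 and 12 in shLmna. Col3a1 was called higher (adjusted p = 0.00051, edgeR), a call lost without shLmna replicate 3. Pdgfra, at 5.15 ± 0.83 CPM and 5.35 ± 0.50 CPM (SD, n = 3 each), overlapped and was not called (log2 fold change 0.04). Col1a1, below the count filter, had 5, 2 and 7 UMIs in shControl and 10, 3 and 11 in shLmna, with overlap in CPM. Pdgfrb, at 11.0 ± 1.55 CPM and 18.7 ± 0.66 CPM (SD, n = 3 each), was higher without overlap and short of the fold criterion (log2 fold change 0.74, adjusted p = 0.0457, edgeR), and Col1a2 had 2, 0 and 1 UMIs against 5, 6 and 1. The 2 measured of 6 endothelial markers summed to 122 to 129 CPM and 126 to 143 CPM. Eng made up nearly all of this, at 123 ± 3.94 CPM and 131 ± 9.60 CPM (SD, n = 3 each), with overlap. Pecam1, below the count filter, had 7, 2 and 6 UMIs in shControl and 2, 5 and 4 in shLmna. Cdh5, Kdr, Tek and Vwf were not in the table. In bulk RNA, more or fewer cells of a type and more or less RNA per cell cannot be told apart, and the part of the macrophage, mesenchymal and epithelial markers in these results was not tested.

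The relatives of these genes, in the families of Spp1, Sparc, the thrombospondins, tenascins and fibulins and in the CCN family of matricellular proteins, were read from the same fit. Of 31 listed relatives, 10 were in the table and 7 were tested. None was called higher and 1 was called lower, or 14.3% of those tested beside 5.71% of all tested genes, and the median log2 fold change was -0.24. A single call is no result about the relatives as a group. The lower gene was Ctgf, a CCN protein, with 32, 51 and 33 UMIs in shControl and 11, 14 and 17 in shLmna (log2 fold change -1.37, adjusted p = 0.0107, edgeR). The call of Ctgf was lost without shControl replicate 2 and without shLmna replicate 1. Its CCN relative Cyr61 was at 370 ± 64.5 CPM and 191 ± 28.4 CPM (SD, n = 3 each), a log2 fold change of -0.95 that misses the fold criterion (adjusted p = 0.0014, edgeR) and that passed it without shControl replicate 1, shControl replicate 2 or shLmna replicate 3. Fstl1, of the Sparc family, and Efemp2, a fibulin, had log2 fold changes of 0.66 and 0.57 and were not called, and Smoc1, also of the Sparc family, had -0.24. The counted end of Efemp2 overlaps an exon of Mus81 on the opposite strand, and whether the counting used the strand is not given in the sources used here.

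Among the receptors and binding partners, 15 of 23 were tested, with 2 called lower and none higher (13.3%, beside 5.71% of all tested genes) and a median log2 fold change of -0.15. Cd44, the hyaluronan and osteopontin receptor, had 92.0 ± 20.01 CPM in shControl and 82.5 ± 11.9 CPM in shLmna (SD, n = 3 each), and its groups overlapped (log2 fold change -0.15, adjusted p = 0.627, edgeR). The integrin chains that bind osteopontin gave 0.37 for Itgav and -0.79 for Itgb3, and Itgb1, shared by many integrins, gave -0.47. Cd47, a thrombospondin receptor, had a log2 fold change of 0.56 (adjusted p = 0.0411, edgeR), short of the fold criterion, and of 0.13 with the GC correction. Sdc1 and Calr, at mean levels of 325 and 2757 CPM in shControl, had log2 fold changes of 0.36 and -0.31. The 2 called receptors were the Sparc scavenger receptor Stab1 (log2 fold change -1.81, adjusted p = 0.0075, edgeR) and the platelet integrin chain Itga2b (-1.04, adjusted p = 0.0423, edgeR). Both were scarce, with at most 26 UMIs in any library, the call of Itga2b was lost in 10 of 15 alternative fits, among them all 6 that left out a library, and the counted end of Stab1 overlaps an exon of Nt5dc2 on the opposite strand. Lrp1, which takes up thrombospondins, had 48.2 ± 1.13 CPM and 96.1 ± 8.52 CPM (SD, n = 3 each), a log2 fold change of 0.99 just short of the fold criterion, and it was called in 7 of 16 alternative fits, among them the GC correction and the fits without shLmna replicate 1 or 2. Cd44, Itgav, Itgb3 and Lrp1 were chosen for naming after their values were seen.

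**Figure D4:**
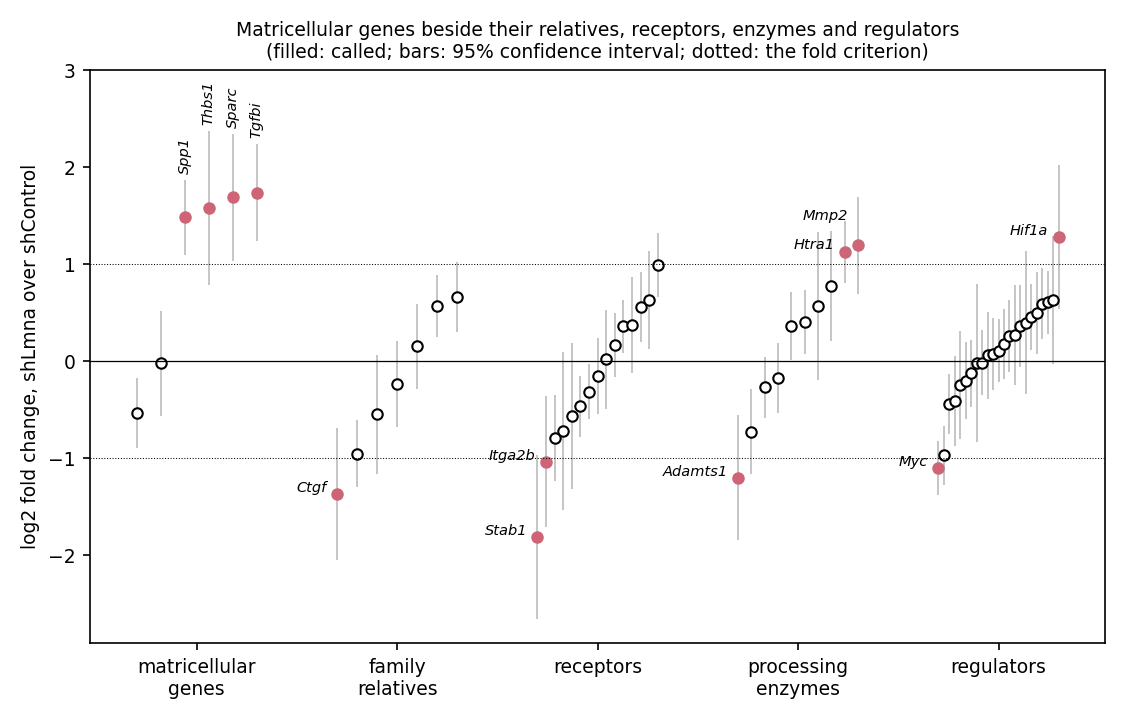
Log2 fold changes of shLmna over shControl (y axis) with 95% confidence intervals for the 6 tested matricellular genes and the tested members of 4 lists, filled and named where the gene was called. The called relatives and receptors all lay below 0, the called enzymes and regulators lay on both sides, and the 4 called matricellular genes lay between 1.48 and 1.74.

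Enzymes that cut, crosslink or modify these proteins were called in both directions. Of 18 listed, 10 were tested, 2 were called higher and 1 lower (30.0%, beside 5.71% of all tested genes), with a median log2 fold change of 0.38. Mmp2, a gelatinase, rose from 12.1 ± 3.15 CPM to 28.4 ± 3.08 CPM (SD, n = 3 each, log2 fold change 1.20, adjusted p = 0.0040, edgeR). Htra1, a secreted serine protease that cleaves matrix proteins, rose from 122 ± 12.95 CPM to 268 ± 34.1 CPM (SD, n = 3 each, log2 fold change 1.13, adjusted p = 0.000196, edgeR). Adamts1, a metalloprotease that can cleave thrombospondin 1, fell from 21.6 ± 6.57 CPM to 9.17 ± 3.24 CPM (SD, n = 3 each, log2 fold change -1.20, adjusted p = 0.0165, edgeR). The call of Adamts1 was lost without shControl replicate 2, shControl replicate 3, shLmna replicate 1 or shLmna replicate 3, whereas Mmp2 and Htra1 were called in all 16 alternatives. Mmp14, Bmp1, Ctsl and Ctsd, the most abundant of the uncalled enzymes, had log2 fold changes of -0.27, 0.40, -0.17 and 0.36. The counted end of Ctsd overlaps an exon of Gm49369 on the same strand.

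Among genes known to control members of the group, 23 of 26 were tested, with 1 called higher and 1 called lower (8.7%, beside 5.71% of all tested genes) and a median log2 fold change of 0.11. The TGF-beta ligand Tgfb1, which induces Tgfbi, was at 62.8 ± 2.12 CPM and 54.9 ± 13.4 CPM (SD, n = 3 each), and the groups overlapped. Runx2, a bone regulator of Spp1, was at 41.7 ± 5.80 CPM and 58.9 ± 13.6 CPM (SD, n = 3 each), also with overlap. Myc, a transcription factor known to repress Thbs1, fell from 597 ± 18.5 CPM to 279 ± 15.2 CPM (SD, n = 3 each, log2 fold change -1.10, adjusted p = 6.96e-05, edgeR). Hif1a, the hypoxia factor, was called higher (log2 fold change 1.28, adjusted p = 0.0236, edgeR), although its groups overlapped, with 57, 134 and 155 UMIs in shControl and 189, 418 and 234 in shLmna. Myc was called in all 16 alternatives, whereas the call of Hif1a was lost in 7, with DESeq2, with the GC correction (log2 fold change 0.68 without the replicate block), and without shControl replicate 1, shControl replicate 2, shLmna replicate 2 or shLmna replicate 3. The AP-1 genes Jun and Fosl1 had log2 fold changes of -0.97 and -0.44, Ets1 had -0.02 and Twist1 had 0.61, and none of these was called. Jun was called with the GC correction and without shLmna replicate 2. Tgfb1, Runx2 and Hif1a were chosen for naming after their values were seen.

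The genes were spread over 8 chromosomes, so their genomic neighbours give a separate view. Of 252 protein-coding genes that start within 1 Mb of a member's start, 110 were tested. Of these 3 were called higher and 3 lower, or 5.45%, beside 5.71% of all tested genes. None of the 5 tested neighbours of Spp1, the 9 of Sparc or the 10 of Fbln2 was called. Near Ecm1, Selenbp1 had 2, 2 and 3 UMIs in shControl and 36, 26 and 12 in shLmna, and Txnip fell (log2 fold change -1.32, adjusted p = 0.0084, edgeR). Selenbp1 has a near-identical copy, Selenbp2, so its counts are uncertain. Near Tgfbi, B230219D22Rik rose (1.15, adjusted p = 0.0057, edgeR), a call lost with the GC correction, and near Thbs1, Fam98b fell (-1.19, adjusted p = 0.0083, edgeR). The calls of Txnip without shControl replicate 2, of B230219D22Rik without shControl replicate 1 or 2, and of Fam98b without shControl replicate 1 or shLmna replicate 3 were also lost. The most abundant neighbours that were not called, Psmb4, Psmb1, Hint1 and Atox1, had log2 fold changes between -0.05 and 0.35. No exon of another gene was found in the counted ends of the 8 measured matricellular genes.

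The genes whose log2 CPM over the 6 libraries was most like that of Spp1 were Wbp5, Jade1, Parva, Tfrc and Cav1, with Pearson's r of 0.995, 0.995, 0.994, 0.993 and 0.992. They were taken from 5841 genes with a mean count of at least 50, of which 107 had an r above 0.95. The libraries form 2 groups that differ in Spp1, and these r values are a description that includes the difference between the groups. Tfrc, the transferrin receptor, and Cav1, the main protein of caveolae, were called higher, with log2 fold changes of 3.55 and 1.09. The call of Cav1 was lost with the GC correction and without shLmna replicate 3. Under the GC correction the log2 fold change of Jade1 went from 0.47 to -0.14. Parva, which links integrins to actin, went from 40.6 ± 3.44 CPM to 58.9 ± 3.15 CPM (SD, n = 3 each) and was not called.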

How the data were processed

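Gene expression of 3 shControl and 3 shLmna libraries was analysed, with groups and replicate numbers taken from the sample labels. Per the study's methods, the authors trimmed reads with Cutadapt, mapped them to mm10 with STAR 2.4.2a and counted UMIs with a modified HTSeq-count from 1000 bases before to 100 bases after the 3' end of RefSeq genes. The deposited counts are raw and whole. The authors also deposited normalized, log2 transformed values corrected with ComBat, for a batch that is not named. Their table of the comparison (mean level, log2 fold change, p-value, adjusted p) was not used.

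Counts were fitted in R 4.3.3 with edgeR 4.0.16 (filterByExpr with a minimum count of 10, TMM factors, quasi-likelihood test, Benjamini-Hochberg adjustment over 8969 genes), without a replicate block. The standard error is the absolute log2 fold change over the square root of F. CPM divides UMIs by the TMM-scaled library size. DESeq2 1.42.0, limma-voom (limma 3.58.1), 2 other scalings, 2 other filters, thinning, a replicate block, a GC correction (loess span 0.3) with and without the block, and leaving out each library were alternatives. Same-numbered libraries deviated from their group means with correlations of 0.34, -0.11 and 0.0087, and the labels do not say what a number shares, so libraries were not treated as paired. Counts with 200 changed genes were simulated, and 8811 genes were tested. By edgeR, 93% of 4-fold and 65% of 2-fold changes of shLmna over shControl had an adjusted p below 0.05 in the right direction. So did 8 genes that were not changed, in either direction. The fold and mean count criteria of a call were not applied there, so these are not shares of called genes. The median absolute log2 fold change of the 2-fold genes was 0.961. Coordinates came from GENCODE M21, where 10472 of 10520 symbols were found, 327 by an earlier name. Figures used matplotlib 3.10.9.

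The members and lists were chosen with earlier results of these data known. The text names every measured member, Lmna, from each list and the neighbours up to 4 called genes with the largest change and no overlap plus up to 4 uncalled genes with the highest count, and the 5 genes most like Spp1. Epcam, Krt7, Krt8, Krt14, Krt18, Erbb2, Eng and Pecam1 are named as markers, after their values were seen. The same holds for Pdgfra, Pdgfrb, Col1a1, Col1a2, Col3a1, Vim, Csf1r, Lyz2 and Cd14. An exact permutation of 3 libraries against 3 has a smallest p of 0.1, so none was run. The library size, 1846208 to 3242051 UMIs, limits what can be seen in genes of few UMIs.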

Additional observations from a re-analysis of the deposited data

How the results depend on the processing

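Spp1, Sparc, Tgfbi, Fbln2 and Ecm1 kept their side of the criteria in every alternative that tested them, and Thbs1 did in 11 of 15. Of the other 52 tested genes that are named and were read under the alternatives, 37 kept their side throughout. The number of genes called was 512, ran from 346 (without shControl replicate 2) to 654 (without shControl replicate 3) with 1 library left out, and was 158 at a mean count of at least 50. That filter, which tests fewer genes, also gave 3 matricellular genes, 0 relatives, 1 receptor and 3 neighbours. DESeq2 gave 1 receptor and 1 regulator, and testing without a filter gave 1 receptor, whereas upper-quartile factors gave 3 receptors, as did the GC correction whether or not the block was in the model, and thinning gave 4 enzymes and 7 neighbours. With the replicate block 518 genes, 4 matricellular genes and 1 receptor were called, and with the GC correction and the block 3 matricellular genes. With each library left out in turn, 3 to 4 matricellular genes, 0 to 2 relatives, 1 to 2 receptors, 2 to 3 enzymes, 1 to 2 regulators and 3 to 8 neighbours were called. The cause of these changes was not tested. The median log2 fold change of all genes was -0.0022 with RLE factors, 0.0153 with upper-quartile factors and -0.034 with the GC correction. Thbs1, Fn1 and Tnc are limited by depth, with at most 24 UMIs in any library.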
